A study of Mus musculus with 6 samples.

Results

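The nonclassical MHC class I genes are relatives of the classical transplantation antigens that lie in the Q, T and M regions of the mouse H2 complex on chromosome 17. Here they are 7 genes chosen by symbol from a list: H2-T22, H2-T23, H2-T24, H2-Q4, H2-Q6, H2-Q7 and H2-M3. Each had 1 row among the 56832 gene rows of the files, and all 7 passed the filter on low counts that left 12488 genes for testing. RNA sequencing had been done on cells labelled monocytes, from peripheral blood of mice, in 6 libraries. The thrombocytopenic group (3 libraries) carried the genotype PF4cre-iDTR, in which Cre driven by the promoter of Pf4, a gene of megakaryocytes and platelets, switches on a receptor for diphtheria toxin. The control group (3 libraries) was wild type (WT). Diphtheria toxin is given as the treatment of both groups, so genotype and platelet loss cannot be told apart. No strain, age or sex, and nothing about pooling or separate animals, is used here, so a p-value here reflects how far libraries of 1 group lay apart, a spread that may be technical. In bulk RNA such as this, fewer cells of a type and less RNA per cell cannot be told apart.

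Class I molecules pair a heavy chain with the light chain beta-2 microglobulin and carry a ligand to the cell surface. The classical heavy chains, H2-K1 and H2-D1 in this mouse complex, show peptides from the cytosol to CD8 T cells. The nonclassical chains vary less between individuals and have narrower tasks, such as showing a fixed leader peptide to NK cells or bacterial formylated peptides to T cells. Many genes of the class are induced by interferons and by the transactivator Nlrc5.

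The libraries held 24842319 to 37552029 counts. Markers of monocytes and macrophages were abundant in all 6 libraries, with summed levels of 21197 to 21465 CPM (counts per 1000000 counts of the library) in thrombocytopenic and 18786 to 19201 CPM in control libraries. Of these 12 markers, 7 were called higher and 5 lower, where 22.4% of all tested genes were called higher and 22.7% lower. Lymphocyte RNA was scarce: NK cell markers summed to at most 0.084 CPM in any library. The 9 T cell markers summed to 2.88 to 3.86 CPM in thrombocytopenic and 4.28 to 4.83 CPM in control libraries. Of the 4 tested, 2 were called lower, while Cd3e, Cd3d and Cd3g had no count. B cell markers summed to 1.07 to 1.67 CPM in thrombocytopenic and 1.29 to 1.89 CPM in control libraries. Dendritic cell markers summed to 15.6 to 18.6 CPM in thrombocytopenic and 31.5 to 35.4 CPM in control libraries. Of 5 neutrophil markers tested, Mmp8 was called higher, at 322.5 ± 5.05 CPM in thrombocytopenic and 227.3 ± 7.22 CPM in control libraries, and the other 4 were not called. Without Mmp8, left out after the values were seen, the neutrophil markers summed to 9.1 to 13.1 CPM in thrombocytopenic and 12.5 to 14.1 CPM in control libraries, which overlap. Platelet markers summed to 0.502 to 1.09 CPM in thrombocytopenic and 4.89 to 6.17 CPM in control libraries. Erythroid markers had no count in any thrombocytopenic library and summed to 1.78 to 2.23 CPM in control libraries, nearly all of it Hba-a1, which was called lower. The part of these differences in the class I results was not tested.

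RNA of 5 of the 7 nonclassical class I genes was lower in monocytes of thrombocytopenic mice: H2-T22, H2-T23 and H2-T24 among the abundant members, and H2-Q6 and H2-Q7 among the scarce ones. H2-Q4 and H2-M3 did not pass the test, and none was higher. The changes of the abundant genes were small: the levels of H2-T22, H2-T23 and H2-T24 were 1.3-fold, 1.18-fold and 1.11-fold lower. The test was edgeR's quasi-likelihood test with Benjamini-Hochberg adjustment over all genes and a threshold of 0.05. The background for this count is high, since 22.7% of all tested genes were called lower, 22.4% higher and 45.1% in either direction. The median log2 fold change of the 7 genes was -0.24, against -0.0008 over all genes tested. The groups did not overlap for 6 of the 7 genes, all of them lower; of all tested genes 26% did not overlap and were lower, 25.2% did not overlap and were higher, and 51.3% did so in either direction.

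**Figure D1:**
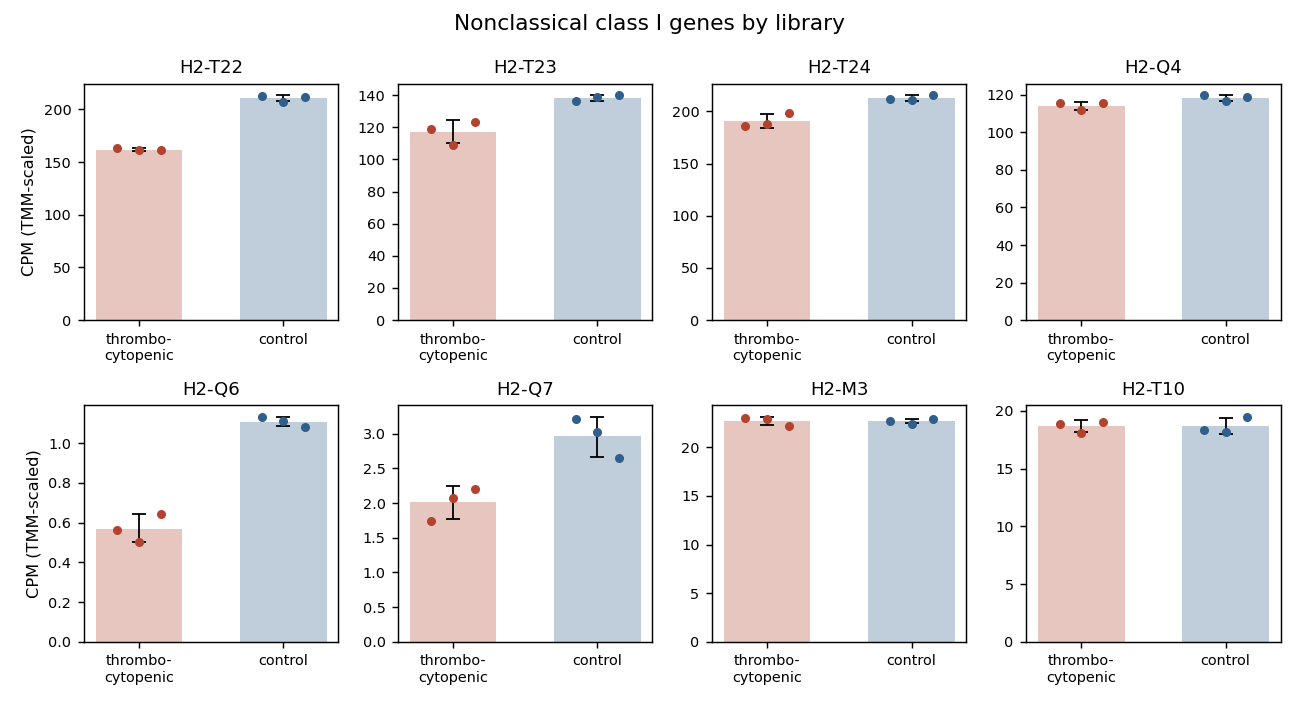
Levels of the 7 nonclassical class I genes and of H2-T10 in each library, in CPM scaled by TMM factors (vertical axes, each starting at 0). Points are libraries, bars are means and whiskers are SD (n = 3 in each group); the thrombocytopenic points of H2-T22 lie at 161 to 163 CPM, below all control points at 207 to 213 CPM, while those of H2-M3 and H2-T10 overlap the control points.

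The T region members lie side by side on the chromosome in the order H2-T24, H2-T23, H2-T22. H2-T22 encodes a class I chain that binds no peptide and is a ligand for a subset of gamma delta T cells. It stood at 163, 161 and 162 CPM in thrombocytopenic and at 213, 207 and 212 CPM in control libraries. Every thrombocytopenic library was below every control library, and the groups lay far apart relative to their spread. The log2 fold change was -0.38 (SE 0.0285; edgeR adjusted p = 8.82e-17), a level 1.3-fold lower.

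H2-T23 encodes Qa-1, which shows a leader peptide of classical class I chains to the inhibitory receptor CD94/NKG2A of NK cells. Its level was 119, 109 and 123 CPM in thrombocytopenic libraries, against 136, 139 and 140 CPM in control libraries. The groups did not overlap, although thrombocytopenic replicate 2 was lower than the other two of its group. The log2 fold change was -0.24 (SE 0.0338; edgeR adjusted p = 6.38e-08).

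H2-T24, a T region gene with no role stated here, had 187, 188 and 199 CPM in thrombocytopenic libraries and 212, 211 and 216 CPM in control libraries. The highest thrombocytopenic library was still below the lowest control library. Its log2 fold change was -0.16 (SE 0.0292; edgeR adjusted p = 1.13e-05), the smallest change among the 5 genes called.

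H2-T10, a near copy of H2-T22 and likewise a ligand of gamma delta T cells, was not a member but bears on how the H2-T22 reads were counted. It was at 18.9, 18.1 and 19.0 CPM in thrombocytopenic libraries and at 18.3, 18.2 and 19.5 CPM in control libraries. The groups overlapped, and the log2 fold change was 0.00 (95% interval -0.12 to 0.13). In the GENCODE M21 annotation the coding sequences of H2-T22 and H2-T10 were identical at 96.3% of 1137 aligned bases. Of the 50-base windows of H2-T22 transcripts, 37.5% also occurred in H2-T10, and of the 100-base windows 8.57%. Over the transcripts of all other genes, 43.9% of its 50-base windows recurred, against 28.8% for H2-T23, 24.3% for H2-Q4 and 3.17% for H2-T24. The stretch of 60 coding bases in which the copies differ most is shown because only reads over such differences can assign a read to either gene. It covers coding bases 888 to 947 of both, with the 14 differing bases in capitals.
H2-T22: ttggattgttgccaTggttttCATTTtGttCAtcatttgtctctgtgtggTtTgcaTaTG
H2-T10: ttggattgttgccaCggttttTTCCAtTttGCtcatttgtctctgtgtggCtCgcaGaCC

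The log2 ratio of H2-T22 to H2-T10 counts was 3.11, 3.15 and 3.09 in thrombocytopenic libraries, against 3.54, 3.51 and 3.45 in control libraries. The ratio was thus lower in every thrombocytopenic library, with a mean difference of -0.382 (exact permutation p = 0.1, two-sided, the smallest that 3 against 3 libraries allow). Added together, both rows gave 182.1, 179.2 and 180.7 CPM in thrombocytopenic and 231.1, 225.4 and 231.8 CPM in control libraries. Most of this sum was H2-T22, with means of 162 CPM in thrombocytopenic and 210.8 CPM in control libraries. H2-T10 had a mean of 18.7 CPM in each group, so the sum largely repeats H2-T22 and is no separate check on it. The pseudogene row H2-T-ps, which shared 12.9% of the 50-base windows of H2-T23 and was singled out with its values known, had 110, 86 and 110 counts in thrombocytopenic and 56, 78 and 65 counts in control libraries. It rose (log2 fold change 0.42, edgeR adjusted p = 0.022), opposite to H2-T23, at a small fraction of the counts of H2-T23, which had at least 3255 in every library. A further copy, H2-T9, was not analysed here.

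H2-Q6 and H2-Q7 encode chains of the Qa-2 antigen, many of which are held in the membrane by a lipid anchor. Both were scarce. H2-Q6 had 21, 15 and 23 counts in thrombocytopenic and 28, 40 and 31 counts in control libraries, or 0.57 ± 0.0705 CPM against 1.11 ± 0.0227 CPM (mean ± SD, n = 3 each). The groups did not overlap in CPM, and the log2 fold change was -0.94 (SE 0.276; edgeR adjusted p = 0.00398). H2-Q7 had 65, 62 and 79 counts in thrombocytopenic and 80, 109 and 76 counts in control libraries, or 2.01 ± 0.241 CPM against 2.96 ± 0.288 CPM. Its groups did not overlap in CPM either, with a log2 fold change of -0.56 (SE 0.161; edgeR adjusted p = 0.00332). These low counts leave wide 95% intervals of -1.50 to -0.39 for H2-Q6 and -0.89 to -0.24 for H2-Q7, so a common size of change cannot be set apart from different ones.

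H2-Q6 and H2-Q7 are copies with 95.4% identity over 978 aligned coding bases, and 34.9% of the 50-base windows of H2-Q7 and 32% of those of H2-Q6 recurred in transcripts of other genes. Coding bases 76 to 135, where the pair differ most, are shown with the 10 differing bases in capitals.
H2-Q6: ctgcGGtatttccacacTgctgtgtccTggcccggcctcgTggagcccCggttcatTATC
H2-Q7: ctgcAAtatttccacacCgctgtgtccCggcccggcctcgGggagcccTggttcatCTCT
Summed, the pair had 2.30, 2.58 and 2.85 CPM in thrombocytopenic and 4.34, 4.14 and 3.73 CPM in control libraries, again without overlap. The copies H2-Q8 and H2-Q9 were not analysed here, and reads that the counting placed on neither row, or on the wrong one, cannot be told from these files. The neighbouring row H2-Q5, annotated as a polymorphic pseudogene in GENCODE M21, fell as well. It had 2.21 ± 0.229 CPM in thrombocytopenic and 3.18 ± 0.277 CPM in control libraries (log2 fold change -0.51, edgeR adjusted p = 0.00531). Of the 50-base windows of H2-Q7, 17.4% occurred in H2-Q5, the largest share with any other gene. The fall of H2-Q5 is thus no separate check on H2-Q7, and the part of shared reads was not tested.

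H2-Q4, the gene of the Qb-1 antigen, was the abundant member of the Q region. It stood at 116, 112 and 116 CPM in thrombocytopenic libraries and at 120, 117 and 119 CPM in control libraries. The groups came close to each other without overlapping. The log2 fold change of -0.05 did not pass the test (95% interval -0.11 to 0.01; edgeR adjusted p = 0.189), but did with upper quartile scaling (-0.07, adjusted p = 0.046). Over all alternatives run, left-out libraries included, the adjusted p-values were 0.046 to 0.43. The annotated antisense gene Gm11131 covers 21% of the H2-Q4 exon bases. It had 53 to 91 counts in any library, and H2-Q4 had at least 2985.

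H2-M3 shows N-formylated peptides, which come from bacteria and mitochondria, to T cells. It had 23, 22.9 and 22.2 CPM in thrombocytopenic libraries and 22.7, 22.4 and 22.9 CPM in control libraries. The groups overlapped fully, with a log2 fold change of 0.00 (95% interval -0.11 to 0.11; edgeR adjusted p = 0.981), so the interval spans small changes either way. No 100-base window of its transcript and 0.576% of its 50-base windows occurred in another gene. The receptors for formylated peptides on myeloid cells, Fpr1 and Fpr2, were higher: Fpr1 was at 870 ± 4.2 CPM in thrombocytopenic and 547 ± 20.6 CPM in control libraries (log2 fold change 0.67), and Fpr2 had a log2 fold change of 0.56.

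**Figure D2:**
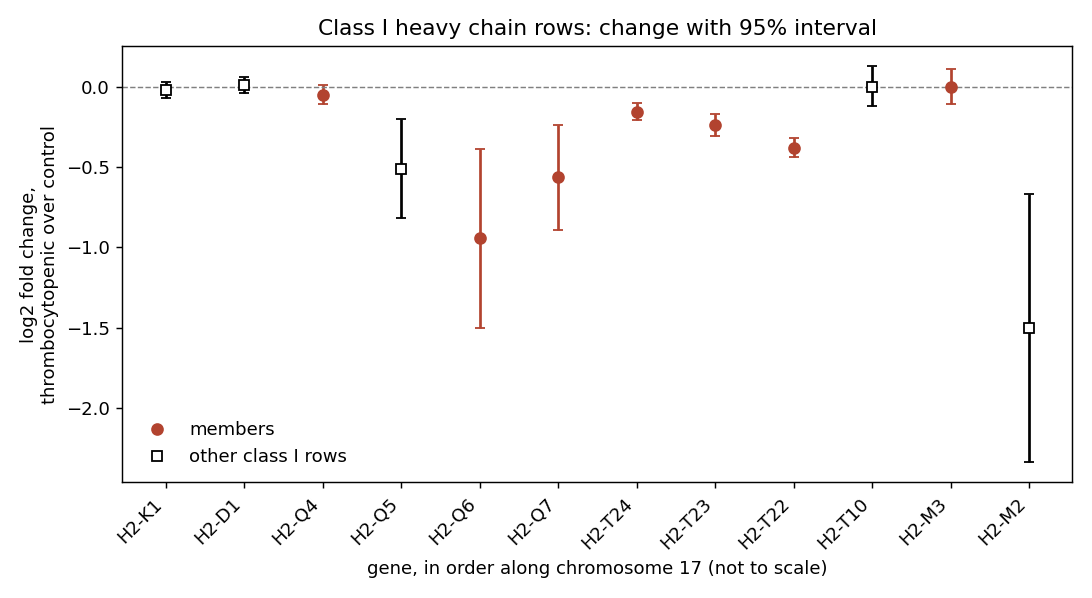
Log2 fold change, thrombocytopenic over control (vertical axis), of class I heavy chain rows in their order along chromosome 17 in GENCODE M21, not to scale. Points are fitted values with 95% intervals; the T region members H2-T24, H2-T23 and H2-T22 are at -0.16, -0.24 and -0.38, while H2-K1, H2-D1, H2-Q4, H2-T10 and H2-M3 lie at or near 0.

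Levels were compared between genes per kilobase of exon of the protein-coding transcripts in GENCODE M21. Full exon length was used, although 43.9% of the 50-base windows of H2-T22 recurred in other genes, against 3.17% for H2-T24. How reads from such windows were counted is not known, so the order between genes is uncertain beyond the spread of libraries. In control libraries H2-T22 led the members with 116.8 ± 1.68 CPM per kb, followed by H2-T24 with 97.6 ± 1.22, H2-T23 with 94.0 ± 1.26 and H2-Q4 with 66.1 ± 0.868 (mean ± SD, n = 3). H2-M3 was at 15.8 ± 0.175, H2-Q7 at 1.93 ± 0.186 and H2-Q6 at 0.531 ± 0.0121 CPM per kb. In thrombocytopenic libraries the order was the same, but the leading members were closer: H2-T22 was at 89.7 ± 0.608, H2-T24 at 87.5 ± 3.04 and H2-T23 at 79.5 ± 4.87 CPM per kb. There the libraries of H2-T22 lay within the range of H2-T24, so that these neighbours in the order did not differ beyond their spread, while the ranges of H2-T24 and H2-T23 did not overlap. The classical H2-D1 and H2-K1 were well above all members, at 442.3 ± 2.61 and 394.9 ± 14 CPM per kb in thrombocytopenic and 439.2 ± 17.2 and 400 ± 8.65 CPM per kb in control libraries.

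**Figure D3:**
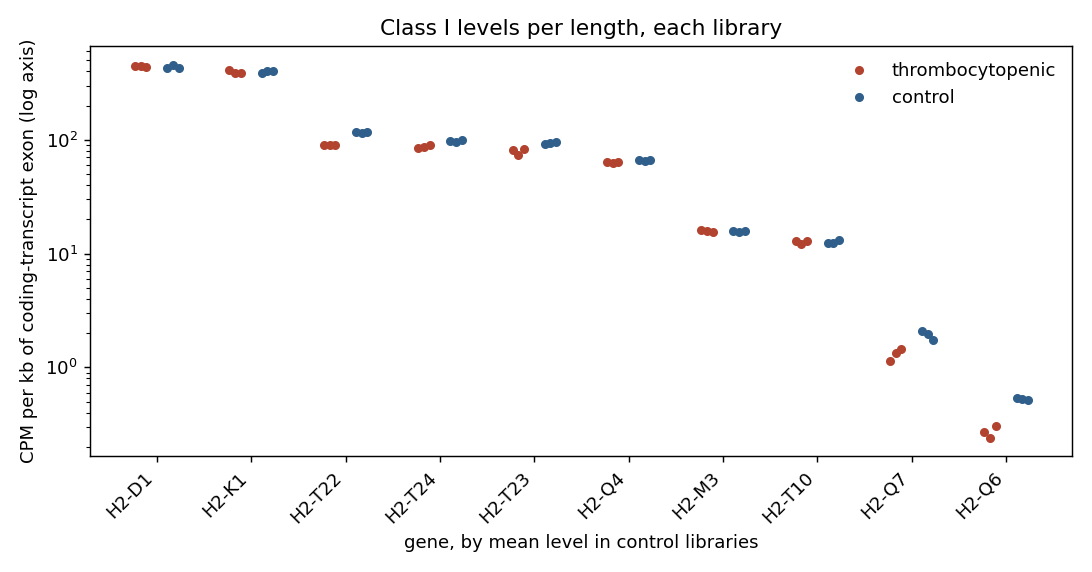
Level of each class I gene in CPM per kb of exon of its protein-coding transcripts (log axis), 1 point per library, thrombocytopenic left of control for each gene. H2-D1 and H2-K1 lie near 400 and above, the T region members and H2-Q4 between 62.4 and 117.9, and H2-Q7 and H2-Q6 at 2.09 or below.

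The classical heavy chain genes were measured in the same libraries. H2-K1 was at 711, 667 and 672 CPM in thrombocytopenic and 675, 702 and 700 CPM in control libraries, with a log2 fold change of -0.02 (95% interval -0.07 to 0.03). H2-D1 had a log2 fold change of 0.01 (-0.04 to 0.06). The groups overlapped for both, and neither passed the test. B2m, the gene of the light chain that classical and most nonclassical chains need, fell to 1372 ± 32.5 CPM in thrombocytopenic libraries, against 1587 ± 44.1 CPM in control libraries (log2 fold change -0.21, edgeR adjusted p = 2.03e-10). The 7 nonclassical genes together held 26.2%, 26.4% and 27.3% of the counts of members, H2-K1 and H2-D1 in thrombocytopenic libraries, against 30.1%, 28.7% and 29.9% in control libraries. That share was lower in all thrombocytopenic libraries and was given no test because it is a sum over the members.

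Differences between members in the size of the change were tested as log2 ratios of counts within each library, for 7 pairs. The mean difference, thrombocytopenic minus control, was -0.361 for H2-T22 over H2-K1, -0.223 for H2-T22 over H2-T24 and -0.137 for H2-T22 over H2-T23. It was -0.224 for H2-T23 over H2-K1, -0.511 for H2-Q7 over H2-Q4 and -0.401 for H2-Q6 over H2-Q7, and that of H2-T22 over H2-T10 is given above. In each of the 7 ratios every thrombocytopenic library lay below every control library. The pairs were not in the plan of the tests. Every numerator was a member called lower, and several ratios share H2-T22. Their common direction thus largely repeats the results of the single genes. The share of all gene pairs whose ratios do not overlap was not computed. Each exact permutation p was 0.1 before and after Benjamini-Hochberg adjustment over the 7 ratios, the smallest the design allows, so none could pass 0.05.

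Promoter sequences are shown for members that were called lower and for members and classical genes that were not. RefSeq windows of 300 bases (250 before and 50 after the start, GRCm38.p6) were found for 6 of the 7 members; H2-T24 had none in the table. The stretches of 70 bases around the interferon-type element are shown, 5′ to 3′ on the strand of the gene, with capitals for letters that matched one of 3 kinds of motif. These are the core of the interferon-stimulated response element (ISRE: TTTC, any 2 bases, TTTC), an NF-kB-like motif in a palindromic form (capitals in H2-K1) or a looser form (first capitals in H2-Q4), and GTTTCACTT, a stretch shared by many class I promoters that was added after the windows were read. Both strands were searched. The stretches lie at chr17:36042910-36042979 (H2-T22, minus strand), chr17:36032801-36032870 (H2-T23, minus), chr17:35379418-35379487 (H2-Q4, plus), chr17:35424652-35424721 (H2-Q6, plus), chr17:35438996-35439065 (H2-Q7, plus), chr17:37270087-37270156 (H2-M3, plus) and chr17:34000414-34000483 (H2-K1, minus).
H2-T22: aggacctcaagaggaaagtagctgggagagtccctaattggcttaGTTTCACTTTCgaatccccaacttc
H2-T23: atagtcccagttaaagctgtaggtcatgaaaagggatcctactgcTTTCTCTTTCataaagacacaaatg
H2-Q4: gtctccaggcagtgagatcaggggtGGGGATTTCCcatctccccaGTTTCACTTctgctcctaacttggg
H2-Q6: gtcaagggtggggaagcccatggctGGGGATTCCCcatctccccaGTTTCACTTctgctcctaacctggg
H2-Q7: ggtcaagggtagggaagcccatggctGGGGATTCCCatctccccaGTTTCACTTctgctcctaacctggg
H2-M3: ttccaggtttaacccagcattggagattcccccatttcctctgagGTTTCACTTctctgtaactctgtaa
H2-K1: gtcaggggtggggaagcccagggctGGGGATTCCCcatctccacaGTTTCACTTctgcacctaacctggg

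H2-T22 and H2-T23 were the members whose windows held the ISRE core, each once; in H2-T22 it overlaps GTTTCACTT. The windows of H2-Q4, H2-Q6, H2-Q7 and H2-M3, and those of H2-K1 and H2-D1, held GTTTCACTT without it. The palindromic NF-kB-like form was found in H2-Q6, H2-Q7, H2-K1 and H2-D1, the looser form in H2-Q4, and neither in H2-T22, H2-T23 or H2-M3. Of the other motifs searched, TGACGC (a part of a cyclic AMP response element) was found before the start in H2-M3, H2-K1 and H2-D1. In H2-Q4 it lay after the start. TTCNNNGAA (GAS-like) was found in H2-M3 and CCAAT in all 8 genes. Among all 32851 promoter windows, 3.44% held the ISRE core, 0.107% the palindromic and 1.63% the looser NF-kB-like form, 0.399% GTTTCACTT, 7.4% TGACGC, 8.3% TTCNNNGAA and 37.4% CCAAT. Of the 386 tested genes with the ISRE core in a window, 40.4% were called lower and 20.7% higher, against 23.5% and 23.2% of the 9441 tested genes with any window. Of the 55 tested genes with GTTTCACTT, which include the class I genes themselves, 49.1% were called lower and 10.9% higher. These are matches of letters and do not show binding.

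Genes that act around the nonclassical chains were given as 8 lists. The background for every list count is high: 22.7% of all tested genes were called lower, 22.4% higher and 45.1% in either direction. No list was tested as a set. Of 10 peptide loading genes, 5 fell, none rose and 5 did not pass, with a median log2 fold change of -0.06. Tap1, a subunit of the peptide transporter, was at 416 ± 13.7 CPM in thrombocytopenic and 504 ± 8.12 CPM in control libraries (log2 fold change -0.28), and Tapbp, the gene of tapasin, at -0.24. Pdia3, a chaperone of the loading complex, was at -0.12, Tap2, the other transporter subunit, at -0.14 and Calr, calreticulin, at -0.08. Erap1, which trims peptides, did not pass, at -0.04. Of 5 immunoproteasome genes 3 fell and 1 rose, with a median of -0.10. Psmb9 was at 62.7 ± 1.48 CPM in thrombocytopenic and 78.8 ± 0.997 CPM in control libraries (log2 fold change -0.33). Psmb10 was at -0.24, Psmb8 at -0.10 and Psme1, which did not pass, at 0.04, while the activator gene Psme2 rose by 0.18.

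Regulators of class I transcription changed in both directions: 7 of 13 fell, 2 rose and 4 did not pass (median -0.10). Nlrc5, the class I transactivator, was at 318 ± 6.96 CPM in thrombocytopenic and 387 ± 7.61 CPM in control libraries (log2 fold change -0.28, edgeR adjusted p = 4.06e-13). The interferon regulatory factor genes Irf8 and Irf1 were at -0.40 and -0.26. Rfx5, which binds the X box of class I and class II promoters, was at -0.50. Rela, an NF-kB subunit, rose to 144 ± 7.25 CPM in thrombocytopenic libraries, against 117 ± 2.65 CPM in control libraries (0.30). Dendritic cell markers, 4 of 5 tested called lower, summed to at most 18.6 CPM in thrombocytopenic and at least 31.5 CPM in control libraries; their part in these values was not tested.

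**Figure D4:**
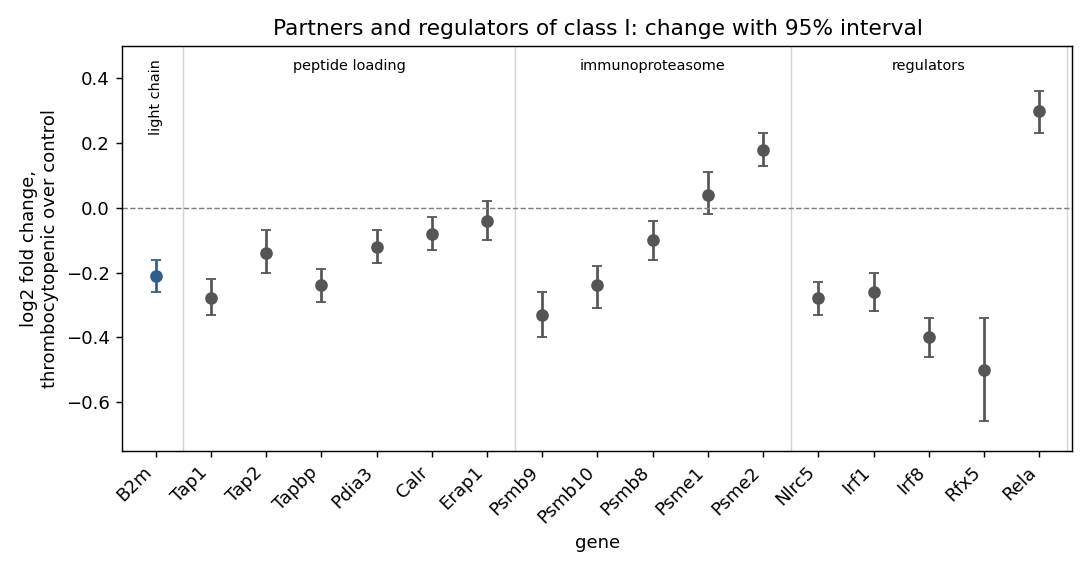
Log2 fold change, thrombocytopenic over control (vertical axis), of genes that pair with, load or regulate class I chains, as fitted values with 95% intervals. The light chain gene B2m is at -0.21, Rfx5 is the lowest at -0.50, and the intervals of Psme2 and Rela, at 0.18 and 0.30, lie wholly above 0.

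Class I-like genes outside the H2 region split. Of 10 tested, 3 rose, 2 fell and 5 did not pass (median -0.08). Ulbp1 and Raet1e, ligands of the activating receptor NKG2D, rose by 0.43 each; Ulbp1 was at 24.1 ± 0.54 CPM in thrombocytopenic and 17.9 ± 1.01 CPM in control libraries. Procr, the protein C receptor, rose by 0.39. Hfe, which takes part in iron sensing, fell to 11, 9.79 and 10.8 CPM in thrombocytopenic libraries, against 14.7, 15.6 and 16.1 CPM in control libraries (log2 fold change -0.55). Mill2, at 0.226 ± 0.163 CPM in thrombocytopenic and 0.501 ± 0.101 CPM in control libraries, fell too (-1.21), although its groups overlapped, and Fcgrt, an IgG receptor gene, did not pass (-0.15).

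Of the other H2 class I rows, 4 of the 19 with a row were tested and 12 had no count in any library. H2-M2, at 5, 8 and 8 counts in thrombocytopenic and 21, 13 and 18 counts in control libraries, fell (log2 fold change -1.50, SE 0.417; edgeR adjusted p = 0.00238). H2-K2 did not pass, at -0.05, and H2-Q5 and H2-T10 are given above. Among receptors that read class I molecules or formylated peptides, listed together with relatives such as Lilrb4b, 4 of 9 tested rose, 3 fell and 2 did not pass (median -0.04). Pirb, an inhibitory myeloid receptor of class I, was at 875 ± 9.43 CPM in thrombocytopenic and 628 ± 14.1 CPM in control libraries (0.48). Its activating relative Pira2 rose by 0.31 and Lilrb4b, another receptor of the family, fell by 0.13 on the log2 scale. Klrk1, the gene of NKG2D, was at 5.76 ± 0.65 CPM in thrombocytopenic and 9.68 ± 0.49 CPM in control libraries (-0.74). Cd8a, the co-receptor gene that binds class I, was at 0.256 ± 0.0438 CPM in thrombocytopenic and 0.733 ± 0.138 CPM in control libraries (-1.54). The T cell marker list holds Cd8a itself. Without Cd8a, left out after the values were seen, the T cell markers summed to 2.58 to 3.65 CPM in thrombocytopenic and 3.39 to 4.15 CPM in control libraries, which overlap, and 1 of 3 tested, Cd28, was called lower. The part of T cell RNA in the Klrk1 and Cd8a values was not tested.

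The genes that lie between and beside the class I genes on chromosome 17 but are not class I changed in both directions, more often up. Of 26 tested, 8 rose, 3 fell and 15 did not pass, with a median log2 fold change of 0.03. Of all tested genes, 22.4% were called higher and 22.7% lower, with a median of -0.0008. Tnf rose by 0.25, Lst1 by 0.22, Ppp1r18 by 0.17, Flot1 by 0.16 and Prrc2a by 0.12, and Prr3 fell by 0.41 on the log2 scale.

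The genes whose pattern over the 6 libraries was nearest to that of a member were found by the root mean square difference of log2 CPM, each gene centred on its own mean, among 7628 or 7629 genes of at least 10 CPM. For H2-T22 they were Ctsh, a cathepsin gene (0.00765), and Slco3a1, an anion transporter gene (0.00937), against a median difference of 0.212 over all candidates. For H2-T23 they were Dnajc12 (0.0252) and Tes (0.0266), and for H2-T24 Tasor2 (0.0107) and Ranbp2 (0.0167). H2-Q4 was nearest to Rnf34 (0.0112) and Psma5 (0.0125), and H2-M3 to Gstm1 (0.0084) and Phf6 (0.011). For the scarce H2-Q6 and H2-Q7 the nearest were Ddhd1 (0.0573) and Knl1 (0.0757), at larger distances. No class I gene was among the 2 nearest of any member. The scarce rows H2-Q5, H2-Q6, H2-Q7, H2-K2 and H2-M2 were not candidates. With 2 places among so many genes, this absence shows little.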

How the data were processed

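Raw counts per gene were deposited by the authors as whole numbers, in a separate file for each library. The submitters' processing notes name Salmon 1.5.2, featureCounts in Subread 2.0.1, STAR 2.7.9a and fastp 0.23.1. The genome build, annotation, strand setting and handling of reads that match several genes are not given in the sources used, so rows of near copies are uncertain.

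Groups and replicate numbers came from the labels. In R 4.3.3 with edgeR 4.0.16, filterByExpr (smallest count 10, smallest total 15), TMM factors of 0.9943 to 1.002 and a robust quasi-likelihood fit on group gave two-sided p-values, adjusted over 12488 genes. The SE is the size of the log2 fold change over the root of F, and intervals are at 95%. The common biological coefficient of variation was 2.68%. CPM used TMM factors for single genes and library totals for marker sums. Each library was counted as its own sample. Within-group libraries differed beyond sampling noise, which does not show whether they came from separate animals. Alternatives were other scalings and filters, DESeq2 1.42.0, limma-voom (limma 3.58.1), a replicate block, left-out libraries and merged copies. The fit was tested on simulated data.

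Transcripts, lengths and gene order came from GENCODE M21 (GRCm38) and promoters from RefSeq (GRCm38.p6), matched by symbol. Genes named are the 7 members, copies, classical genes, up to 6 tested genes per list in order of p, and the 2 nearest by pattern. The members and lists were chosen with earlier results of these data known. Of the regulators, 1 gene is counted in its list but not reported here.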

Additional observations from a re-analysis of the deposited data

How the results depend on the processing

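For each gene 16 or 17 alternatives were run, merged copies included. Merged copies aside, H2-T22 stayed between -0.40 and -0.37, H2-T23 between -0.28 and -0.19 and H2-T24 between -0.18 and -0.14 on the log2 scale. H2-Q6 stayed between -1.04 and -0.87 and H2-Q7 between -0.64 and -0.46. All these genes were called lower throughout. The exception is that H2-Q6 was not tested when a mean of at least 1 CPM was asked for, which left 4 members lower. With near copies counted as 1 gene, H2-T22 with H2-T10 gave -0.34 and H2-Q6 with H2-Q7 gave -0.66, both called lower. Most counts of the first pair were those of H2-T22, so its value largely repeats that gene. H2-Q4 was called lower with upper quartile scaling (-0.07). H2-M3, at 0.00, changed sign without passing the test: it was -0.02 with upper quartile scaling, and 0 after rounding with library totals, with a mean of at least 1 CPM and with TMM factors without mitochondrial genes. Leaving out 1 library in turn gave -0.01 to 0.02 for H2-M3. The cause of these shifts was not tested.

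Replicate numbers are shared by the groups, and the deviations of same-numbered libraries correlated at -0.0324, -0.17 and -0.0387. Those of differently numbered libraries correlated at -0.113 to 0.155. With 3 libraries per group these values cannot decide whether the numbers mark pairs. With the replicate block 2679 genes were higher and 2723 lower, against 2792 and 2834 without it, and the same number of members, 5, was lower. H2-T22 was -0.38 and H2-Q6 -0.95 with the block. The counts of H2-Q6, at most 40 in any library, limit what its size of change can show. The smallest exact permutation p of 0.1 limits the ratio tests.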
